A study of Homo sapiens with 9 samples.

Results

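The proteasome genes described here were all genes whose symbol is PSM followed by a letter from A to G and a number, read from probe sets that the array annotation assigns to exactly 1 gene symbol. Of 48 protein-coding genes with such a symbol in the RefSeq table, 45 were measured, among 18417 genes tested in all. PSMC5, PSMD7 and PSMD13 were not analysed here. The 45 genes comprised 8 alpha and 7 constitutive beta subunits of the 20S core, 4 beta subunits of the immunoproteasome and thymoproteasome, 5 ATPases and 9 other subunits of the 19S cap, 7 assembly chaperones, and 5 activators or inhibitors.

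The proteasome is the barrel-shaped protease that degrades ubiquitin-tagged proteins in the cytosol and nucleus. Its core is a stack of alpha and beta rings whose beta subunits carry the catalytic sites, and the 19S cap recognises, deubiquitinates and unfolds the substrate. In cells exposed to interferon, 3 catalytic subunits are replaced by PSMB8, PSMB9 and PSMB10 to form the immunoproteasome, which with the PSME1 and PSME2 activator makes peptides for antigen presentation.

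RNA came from IMR90 ER:RAS cells, a human lung fibroblast line (spelled IRM90 in the labels) carrying oncogenic RAS fused to the oestrogen receptor's hormone-binding part, so that 4-hydroxytamoxifen (4OHT) switches RAS on and the cells enter senescence. The 9 arrays made 3 groups of 3: shARID1B+4OHT cells, which carried a short hairpin against the SWI/SNF subunit ARID1B and received 100 nM 4OHT; vector+4OHT cells, with empty vector and the same dose; and vector-4OHT cells, with empty vector and no 4OHT. All groups carried ER:RAS, were grown for 7 days and are labelled 6 days after 4OHT. No group had 4OHT without RAS, a control hairpin, or the hairpin without 4OHT, and the number and identity of the hairpins are not stated in the labels. The study calls the replicates biological, while the labels do not say whether they were separate cultures, and p-values measure the spread between these arrays.

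All values are log2 intensities, and levels are compared only within a gene. Pearson correlations over all 33297 probe sets were 0.996 to 0.997 within groups and 0.987 to 0.996 between them. ARID1B itself stood at 8.07, 7.96 and 8.13 in shARID1B+4OHT cells and at 8.63, 8.96 and 8.77 in vector+4OHT cells, a log2 change of -0.73 (SE 0.081, limma adjusted p = 1.8e-04). All 10 fibroblast markers lay above 6.75, the median of all values, in every group. Their mean was 11.20 to 11.24 on shARID1B+4OHT, 11.09 to 11.19 on vector+4OHT and 11.46 to 11.60 on vector-4OHT arrays. In senescence 8 of the 10 fell, and upon knockdown 2 rose and 2 fell. Of 8 leukocyte markers measured, CD68, which fibroblasts also make, rose in every comparison, and 6 were below 6.75 in every group, and PTPRC, the pan-leukocyte marker, was 3.90 to 4.07 throughout. The mean of these 8 spanned 6.62 to 6.65 on shARID1B+4OHT, 6.56 to 6.63 on vector+4OHT and 6.56 to 6.62 on vector-4OHT arrays. Of 7 epithelial markers measured, KRT8, KRT19 and MUC1 fell in senescence and KRT19 and CLDN4 rose upon knockdown. Below 6.75 were 2 of these 7 in shARID1B+4OHT cells and 3 in each other group, and the rest lay above it. Among those below it were EPCAM and CDH1, on every array. The mean of these 7 was 7.24 to 7.30 on shARID1B+4OHT, 7.05 to 7.14 on vector+4OHT and 7.34 to 7.43 on vector-4OHT arrays, lowest in vector+4OHT cells and without overlap. Of 7 endothelial markers, 1 rose and 1 fell in each of these comparisons (PECAM1 and TEK, in opposite directions), with means of 6.03 to 6.07, 5.97 to 6.08 and 6.00 to 6.09 in the same order of groups. The part of these shifts in the changes of proteasome genes was not tested.

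In RAS-induced senescence (vector+4OHT against vector-4OHT), 14 proteasome genes rose and 2 fell. The rise was spread over the 20S core and, most often, the non-ATPase subunits of the cap, while the genes that fell were the immunoproteasome subunit PSMB9 and the activator PSME1. Upon ARID1B knockdown (shARID1B+4OHT against vector+4OHT), 6 rose, among them PSMB8, PSMB9, PSME1 and PSME2, and 3 fell, namely PSMB3, PSMD2 and PSMD3. A gene was said to rise or fall where limma's adjusted p over all 18417 genes was below 0.05. The methods' t-test with Benjamini-Hochberg adjustment called 7 of the 45 higher and 2 lower in senescence, and 2 higher and 3 lower upon knockdown. No proteasome gene changed by as much as 2-fold in any comparison. In such bulk RNA, fewer cells expressing a gene and less RNA per cell cannot be told apart.

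Read against all genes, the share of proteasome genes that rose in senescence was 31.1%, compared with 14.9% of all genes tested, and the share that fell was 4.44%, compared with 17.6%. Either call was made for 32.6% of all genes in that comparison. In the knockdown comparison 13.3% of the proteasome genes rose, against 9.63% of all genes, and 6.67% fell, against 6.09% of all genes; the call in either direction was made for 15.7% of all genes. By the methods' t-test with Benjamini-Hochberg adjustment, 15.6% rose in senescence, against 9.43% of all genes, and 4.44% fell, against 10.9%. Upon knockdown the same test had 4.44% higher, against 4.48% of all genes, and 6.67% lower, against 3.37%. Over the 45 genes the median log2 change was 0.03 in senescence and 0.02 upon knockdown, against -0.01 and -0.02 over all genes. Of the 45 genes 42 (93.3%) passed a filter on dim probe sets that 64.9% of all genes passed. Among the 11945 genes that passed, calls were more frequent than over all genes, with 23.3% higher and 25.7% lower in senescence and 16.3% higher and 10.5% lower upon knockdown. Of the 42 proteasome genes among them, 14 were higher and 2 lower in senescence (33.3% and 4.76%), and 8 higher and 3 lower upon knockdown. By limma, the knockdown shares lay near the background with and without the filter. Both comparisons use the same vector+4OHT arrays, so a low value there lowers the first change and raises the second.

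**Figure D1:**
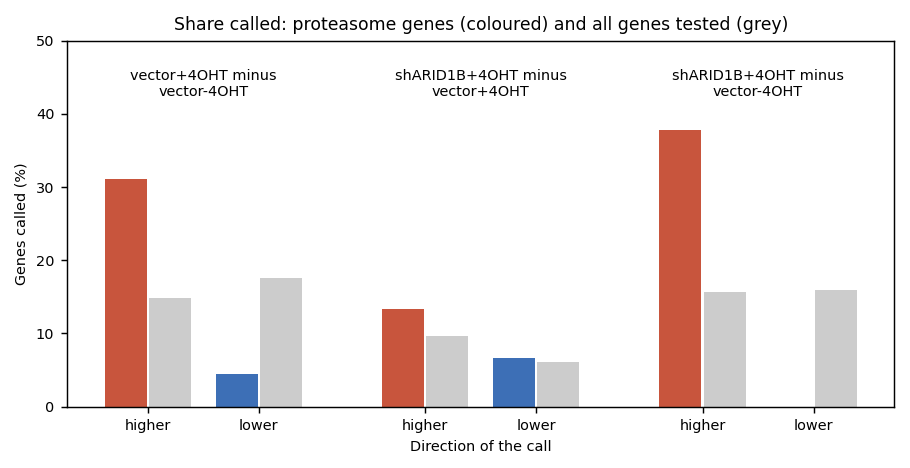
Share of the 45 proteasome genes called higher (red) or lower (blue) and share of all 18417 genes tested (grey), in percent, for the 3 comparisons. Proteasome genes were called higher in 31.1%, 13.3% and 37.8% of cases, and in the last comparison none was called lower.

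**Figure D2:**
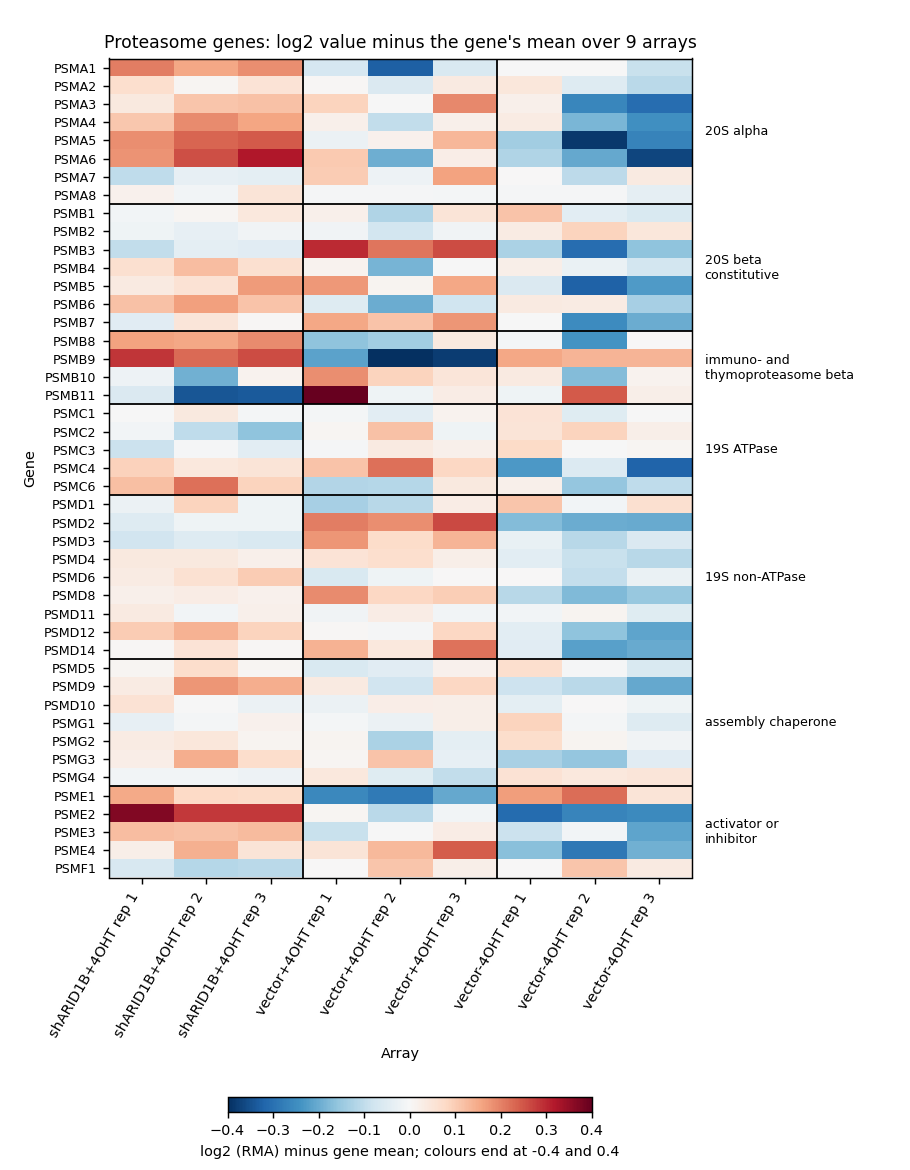
Each row is a proteasome gene and each column an array, coloured by the log2 value minus the gene's mean over the 9 arrays, with rows grouped by role. PSMB9 and PSME1 are low on the 3 vector+4OHT arrays alone, PSME2 is high on the shARID1B+4OHT arrays, and PSMB3 and PSMD2 are high on the vector+4OHT arrays.

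Of the 3 immunoproteasome subunits, only PSMB9 was called in senescence, and PSMB8 and PSMB9 rose upon knockdown. PSMB9 (LMP2), which replaces the caspase-like subunit PSMB6, stood at 8.04, 7.98 and 8.02 in shARID1B+4OHT cells, 7.54, 7.15 and 7.38 in vector+4OHT cells, and 7.91, 7.89 and 7.89 in vector-4OHT cells. The vector+4OHT arrays were the lowest and did not overlap with either other group. PSMB9 fell in senescence by 0.54 on the log2 scale (SE 0.083, limma adjusted p = 4.1e-04), which is 31.3% lower. It rose upon knockdown by 0.66 (SE 0.083, limma adjusted p = 4.2e-04), which is 1.58-fold, and its level in shARID1B+4OHT cells was 0.12 above that in vector-4OHT cells (SE 0.083, limma adjusted p = 0.33). The vector+4OHT arrays were also the most scattered, with a mean of 7.36 ± 0.197, against 8.02 ± 0.029 in shARID1B+4OHT and 7.90 ± 0.011 in vector-4OHT cells (SD, n = 3 each). The methods' t-test, adjusted over all genes, left the knockdown change of PSMB9 at an adjusted p of 0.055.

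PSMB8 (LMP7), which replaces the chymotrypsin-like subunit PSMB5, stood at 7.87, 7.87 and 7.90 in shARID1B+4OHT cells, 7.55, 7.58 and 7.75 in vector+4OHT cells, and 7.71, 7.47 and 7.72 in vector-4OHT cells. The shARID1B+4OHT arrays were above all others, and the vector+4OHT and vector-4OHT arrays overlapped. PSMB8 rose upon knockdown by 0.25 (SE 0.076, limma adjusted p = 0.046), close to the threshold. The call was lost in 7 of 9 fits that left out 1 array, all except those without vector-4OHT replicate 2 or vector+4OHT replicate 3, with adjusted p from 0.021 to 0.139 over the 9 fits, and also by the methods' t-test with Benjamini-Hochberg adjustment (adjusted p = 0.11). In senescence its change was -0.0040 (SE 0.076), with a 95% interval from -0.17 to 0.16. 

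PSMB10 (MECL-1), which replaces the trypsin-like subunit PSMB7, stood at 7.63, 7.46 and 7.66 in shARID1B+4OHT cells, 7.83, 7.74 and 7.70 in vector+4OHT cells, and 7.69, 7.48 and 7.66 in vector-4OHT cells. The vector+4OHT arrays lay just above all others, and the other groups overlapped. Neither its change of -0.17 upon knockdown nor that of 0.15 in senescence passed the test (limma adjusted p = 0.16 and 0.17). PSMB11, the thymus-specific beta subunit, was below 6.75 on every array and was not called in any comparison. The 3 probe sets of PSMB8 held identical values, as did the 3 of PSMB9, so they count as 1 measurement each.

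Of their constitutive counterparts, PSMB5 and PSMB7 rose in senescence and PSMB6 rose upon knockdown. PSMB5 stood at 11.78, 11.80 and 11.91 in shARID1B+4OHT cells, 11.92, 11.76 and 11.90 in vector+4OHT cells, and 11.69, 11.42 and 11.52 in vector-4OHT cells. It rose in senescence by 0.32 (SE 0.076, limma adjusted p = 0.0076), and the shARID1B+4OHT and vector+4OHT arrays overlapped. PSMB7 stood at 11.77, 11.86 and 11.82 in shARID1B+4OHT cells, 11.97, 11.93 and 11.99 in vector+4OHT cells, and 11.81, 11.56 and 11.62 in vector-4OHT cells, a rise in senescence of 0.30 (SE 0.066, limma adjusted p = 0.0046). Its vector+4OHT arrays were above all others. Neither rise was called by the methods' t-test with Benjamini-Hochberg adjustment (adjusted p = 0.10 for PSMB5 and 0.076 for PSMB7). PSMB6 stood at 12.71, 12.76 and 12.71 in shARID1B+4OHT cells, 12.55, 12.40 and 12.52 in vector+4OHT cells, and 12.63, 12.63 and 12.46 in vector-4OHT cells. It did not pass the test in senescence (-0.09, SE 0.062) and rose upon knockdown by 0.24 (SE 0.062, limma adjusted p = 0.024). That call was lost without vector+4OHT replicate 2 and without any 1 of the shARID1B+4OHT arrays, with adjusted p up to 0.092, and by the methods' t-test with Benjamini-Hochberg adjustment (adjusted p = 0.071).

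**Figure D3:**
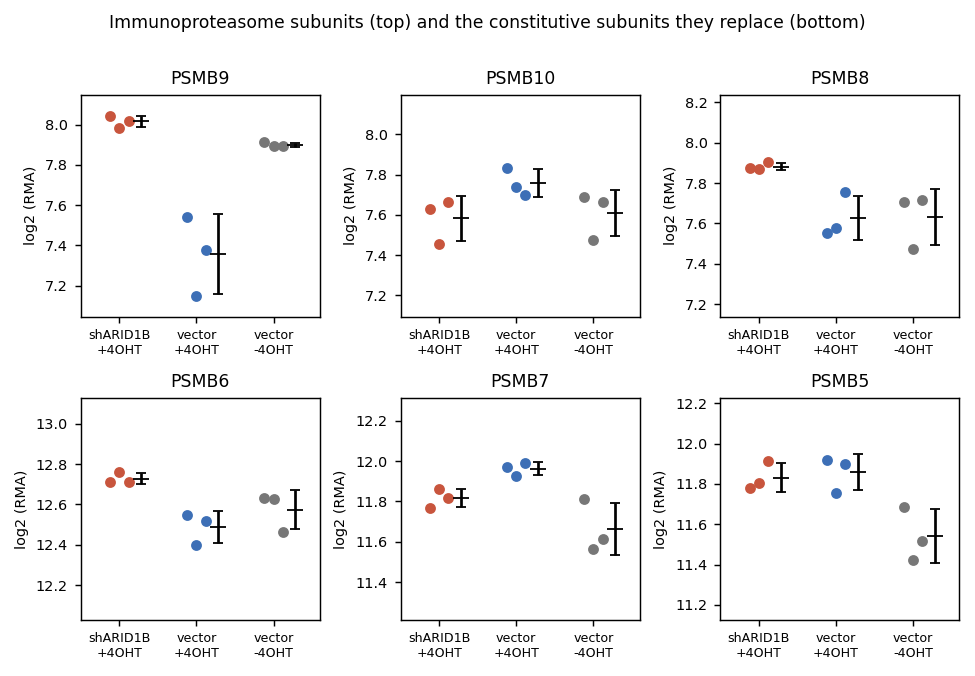
Log2 value on each array (points) with mean and SD (bars, n = 3) for the immunoproteasome subunits in the top row and, below each, the constitutive subunit it replaces. PSMB9 is lowest on the vector+4OHT arrays (7.15 to 7.54) and PSMB7 highest there (11.93 to 11.99), and each vertical axis has its own range.

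Each immunoproteasome subunit was then set against the subunit it replaces, as the difference between their log2 changes. In senescence PSMB9 changed by 0.45 less than PSMB6 (difference -0.45, SE 0.088), PSMB8 by 0.32 less than PSMB5 (-0.32, SE 0.088) and PSMB10 by 0.15 less than PSMB7 (-0.15, SE 0.070). Upon knockdown the difference was 0.42 for PSMB9 over PSMB6 (SE 0.077), 0.28 for PSMB8 over PSMB5 (SE 0.075) and -0.03 for PSMB10 over PSMB7 (SE 0.097). With 3 arrays a group, the exact permutation test (2-sided) cannot go below p = 0.1. The exact test gave p = 0.1 for all of these except PSMB10 over PSMB7 upon knockdown (p = 0.8), and adjusted over the 15 differences tested the smallest value was 0.136.

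Of the activators, PSME1 fell and PSME2 and PSME4 rose in senescence, and PSME1 and PSME2 rose upon knockdown. PSME1 (PA28 alpha) stood at 10.65, 10.58 and 10.57 in shARID1B+4OHT cells, 10.24, 10.21 and 10.29 in vector+4OHT cells, and 10.66, 10.72 and 10.55 in vector-4OHT cells. The vector+4OHT arrays were below all others and the other groups overlapped. PSME1 fell in senescence by 0.40 (SE 0.056, limma adjusted p = 2.5e-04), which is 24.0% lower, and rose upon knockdown by 0.35 (SE 0.056, limma adjusted p = 0.0020).

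PSME2 (PA28 beta), its partner in the same heptameric ring, stood at 11.06, 10.97 and 10.97 in shARID1B+4OHT cells, 10.70, 10.58 and 10.68 in vector+4OHT cells, and 10.38, 10.43 and 10.44 in vector-4OHT cells. The 3 groups were stepwise and did not overlap. PSME2 rose in senescence by 0.24 (SE 0.052, limma adjusted p = 0.0042) and again upon knockdown by 0.35 (SE 0.052, limma adjusted p = 0.0012). It was 50.3% higher in shARID1B+4OHT than in vector-4OHT cells (log2 change 0.59, SE 0.052, limma adjusted p = 7.4e-06), more than any other proteasome gene in that comparison. The change of PSME1 minus that of PSME2 was -0.64 in senescence (SE 0.065) and 0.00077 upon knockdown (SE 0.028), with exact permutation p = 0.1 and 1. This pair was chosen after its values were seen.

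PSME4 (PA200), a nuclear activator, stood at 10.71, 10.83 and 10.74 in shARID1B+4OHT cells, 10.74, 10.82 and 10.93 in vector+4OHT cells, and 10.52, 10.40 and 10.49 in vector-4OHT cells. It was low in vector-4OHT cells alone and rose in senescence by 0.36 (SE 0.063, limma adjusted p = 0.0011), and the arrays of the 4OHT groups overlapped. PSME3 (PA28 gamma), the nuclear member of the PA28 family, stood at 12.04, 12.03 and 12.04 in shARID1B+4OHT cells, 11.83, 11.91 and 11.95 in vector+4OHT cells, and 11.83, 11.91 and 11.71 in vector-4OHT cells. It was highest on the shARID1B+4OHT arrays, but neither the knockdown change of 0.14 nor the senescence change of 0.08 passed the test (limma adjusted p = 0.14 and 0.37). PSMF1 (PI31), which inhibits the isolated core, stood at 11.14, 11.09 and 11.10 in shARID1B+4OHT cells, 11.21, 11.32 and 11.23 in vector+4OHT cells, and 11.21, 11.32 and 11.24 in vector-4OHT cells. It was lowest on the shARID1B+4OHT arrays, and its knockdown change of -0.14 did not pass the test (limma adjusted p = 0.099).

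**Figure D4:**
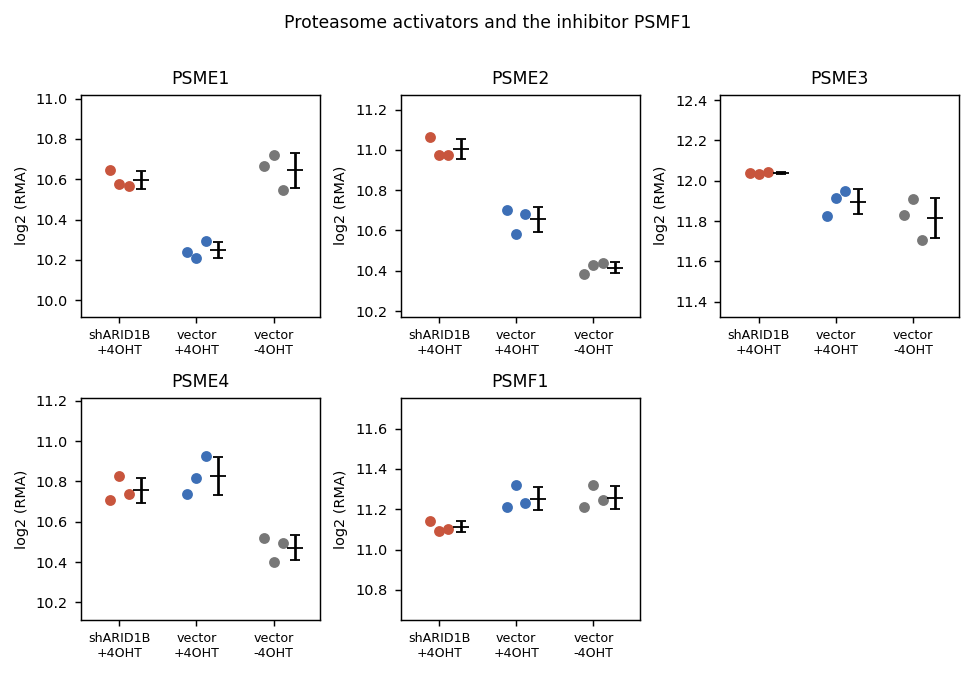
Log2 value on each array (points) with mean and SD (bars, n = 3) for the activators PSME1 to PSME4 and the inhibitor PSMF1, each on its own vertical axis. PSME1 is low on the vector+4OHT arrays (10.21 to 10.29), whereas PSME2 steps down across the 3 groups without overlap.

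Promoter windows are shown for the 3 immunoproteasome subunits, the PA28 pair and their comparison genes, whether or not they were called, to let the interferon-type motifs be read in place. RefSeq windows of 250 bases before to 50 after the gene start (build GRCh38.p14) were found for 39 of the 45 genes, in 47 windows, since a gene can have several. The core of interferon response elements, here GAAA, any 2 bases and GAAA again, occurred on either strand in 7 of the 47 windows (14.9%), against 3.57% of all 35116 windows. The genes were PSMA4, PSMB4, PSMB8, PSMB10, PSMG4, PSME1 and PSME2. The NF-Y box CCAAT occurred in 18 windows (38.3%, against 34.6%) and TGACNNNGC, the core bound by the proteasome gene activator NFE2L1 and its relatives, in 14 (29.8%, against 13.3%). These strings are short, a window can hold several that overlap, and a match is a description of the letters and not a binding site.

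The windows below run 5′ to 3′ on the gene's strand, with every match to any of the 3 motifs, on either strand, in capitals. They are PSMB9 (chr6:32853942-32854241, plus strand), the window of its divergent neighbour TAP1 that adjoins it (chr6:32853655-32853954, minus strand), PSMB8 (the second of 2 windows, chr6:32843998-32844297, minus strand, since the first held no match), PSMB10 (chr16:67936801-67937100, minus strand), PSME1 (chr14:24135944-24136243, plus strand), PSME2 (chr14:24146561-24146860, minus strand) and, as the constitutive subunit that rose most in senescence, PSMB3 (chr17:38752491-38752790, plus strand).
PSMB9: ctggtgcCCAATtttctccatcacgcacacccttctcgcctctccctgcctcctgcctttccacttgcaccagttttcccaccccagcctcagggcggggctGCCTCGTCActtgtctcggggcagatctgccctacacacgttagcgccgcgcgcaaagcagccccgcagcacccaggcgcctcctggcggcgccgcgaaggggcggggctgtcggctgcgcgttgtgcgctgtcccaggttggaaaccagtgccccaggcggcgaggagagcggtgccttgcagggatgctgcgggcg
TAP1: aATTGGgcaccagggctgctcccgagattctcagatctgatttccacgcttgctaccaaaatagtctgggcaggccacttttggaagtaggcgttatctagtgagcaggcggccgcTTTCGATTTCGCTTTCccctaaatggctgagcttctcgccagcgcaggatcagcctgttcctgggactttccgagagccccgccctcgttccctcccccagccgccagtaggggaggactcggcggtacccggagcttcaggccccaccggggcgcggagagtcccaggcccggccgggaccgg
PSMB8: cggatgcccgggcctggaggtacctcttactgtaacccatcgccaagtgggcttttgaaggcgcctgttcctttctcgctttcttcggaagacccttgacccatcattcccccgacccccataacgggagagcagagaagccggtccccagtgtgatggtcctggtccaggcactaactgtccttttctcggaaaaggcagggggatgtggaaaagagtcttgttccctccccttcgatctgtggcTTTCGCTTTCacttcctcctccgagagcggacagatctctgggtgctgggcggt
PSMB10: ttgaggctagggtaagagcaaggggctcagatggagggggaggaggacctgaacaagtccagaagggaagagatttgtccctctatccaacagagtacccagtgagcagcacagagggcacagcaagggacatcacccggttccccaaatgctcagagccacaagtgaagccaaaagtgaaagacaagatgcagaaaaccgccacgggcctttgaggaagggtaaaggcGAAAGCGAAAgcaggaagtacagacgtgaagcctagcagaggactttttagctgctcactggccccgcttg
PSME1: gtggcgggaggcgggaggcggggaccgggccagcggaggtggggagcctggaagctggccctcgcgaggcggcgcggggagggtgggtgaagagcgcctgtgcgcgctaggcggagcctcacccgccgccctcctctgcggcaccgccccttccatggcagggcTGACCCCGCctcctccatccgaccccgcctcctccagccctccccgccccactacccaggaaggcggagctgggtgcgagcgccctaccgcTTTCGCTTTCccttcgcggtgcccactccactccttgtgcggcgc
PSME2: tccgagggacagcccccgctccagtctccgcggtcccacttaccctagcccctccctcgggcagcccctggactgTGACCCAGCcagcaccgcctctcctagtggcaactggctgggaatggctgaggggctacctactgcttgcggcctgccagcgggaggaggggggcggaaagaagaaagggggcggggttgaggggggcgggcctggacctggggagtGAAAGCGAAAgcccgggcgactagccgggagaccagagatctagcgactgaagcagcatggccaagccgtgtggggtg
PSMB3: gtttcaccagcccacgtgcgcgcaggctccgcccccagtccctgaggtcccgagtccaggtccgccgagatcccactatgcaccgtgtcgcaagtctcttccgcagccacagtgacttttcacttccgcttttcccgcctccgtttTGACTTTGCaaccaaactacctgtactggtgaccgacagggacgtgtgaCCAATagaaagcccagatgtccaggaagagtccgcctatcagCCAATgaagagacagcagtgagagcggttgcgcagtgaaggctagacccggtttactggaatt

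Among the immunoproteasome and PA28 genes, the interferon-type core lay at position -4 of the PSMB8 window, -21 of PSMB10, 6 of PSME1 and -28 of PSME2, counting the first transcribed base as 1. PSMB9 had no match to the interferon-type core in its window, only a CCAAT and a TGACNNNGC match. The TAP1 window, which overlaps that of PSMB9 by 13 bases and reads the other way, had 2 overlapping matches to that core at positions -134 and -128. These lay between the PSMB9 start and that of this TAP1 window, upstream of PSMB9 but outside its window. The CCAAT match of PSMB9 and that of TAP1 were the same bases, within the overlap. PSME1 and PSME2 lie near each other on chromosome 14, each with 1 match to that core and 1 to TGACNNNGC, and changed in opposite directions in senescence as given above.

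TAP1, the peptide transporter subunit, stood at 10.25, 10.21 and 10.26 in shARID1B+4OHT cells, 10.09, 10.23 and 10.17 in vector+4OHT cells, and 9.53, 9.42 and 9.78 in vector-4OHT cells. Its vector-4OHT arrays were the lowest and the 4OHT groups overlapped, unlike those of PSMB9. TAP1 rose in senescence by 0.59 (SE 0.082, limma adjusted p = 2.2e-04), and its knockdown change of 0.08 did not pass the test. The change of PSMB9 minus that of TAP1 was -1.13 in senescence (SE 0.19) and 0.58 upon knockdown (SE 0.15), with the smallest exact permutation p that 3 arrays a group allow (p = 0.1). This pair too was chosen after its values were seen.

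Among the alpha subunits, which gate the core, 2 of 8 rose in senescence and 1 rose upon knockdown. PSMA5 stood at 10.42, 10.47 and 10.48 in shARID1B+4OHT cells, 10.21, 10.25 and 10.37 in vector+4OHT cells, and 10.10, 9.85 and 9.97 in vector-4OHT cells. The 3 groups did not overlap, and PSMA5 rose in senescence by 0.31 (SE 0.068, limma adjusted p = 0.0050), a call lost by the methods' t-test with Benjamini-Hochberg adjustment (adjusted p = 0.089). PSMA3 stood at 10.64, 10.71 and 10.72 in shARID1B+4OHT cells, 10.69, 10.60 and 10.79 in vector+4OHT cells, and 10.62, 10.34 and 10.30 in vector-4OHT cells. Its vector-4OHT replicate 1 overlapped with the vector+4OHT arrays. The rise of 0.27 in senescence (SE 0.085, limma adjusted p = 0.028) was lost without vector-4OHT replicate 2 or 3 or vector+4OHT replicate 1 or 3, with adjusted p up to 0.114, and by the methods' t-test with Benjamini-Hochberg adjustment (adjusted p = 0.21).

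PSMA1 stood at 12.11, 12.06 and 12.09 in shARID1B+4OHT cells, 11.83, 11.58 and 11.84 in vector+4OHT cells, and 11.90, 11.90 and 11.81 in vector-4OHT cells. The shARID1B+4OHT arrays were above all others, and PSMA1 rose upon knockdown by 0.33 (SE 0.071, limma adjusted p = 0.0093), a call lost by the methods' t-test with Benjamini-Hochberg adjustment (adjusted p = 0.12). PSMA6 stood at 12.09, 12.17 and 12.23 in shARID1B+4OHT cells, 12.02, 11.72 and 11.94 in vector+4OHT cells, and 11.79, 11.71 and 11.54 in vector-4OHT cells. Its knockdown change of 0.27 and senescence change of 0.21 did not pass the test (limma adjusted p = 0.058 and 0.093), although the shARID1B+4OHT arrays were above all others. PSMA8, the germ-cell alpha subunit, was between 3.81 and 3.89 on every array. PSMA2, PSMA4 and PSMA7 were not called in either comparison.

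Of the 7 constitutive beta subunits, PSMB3, PSMB5 and PSMB7 rose in senescence. PSMB3, a structural beta subunit without a catalytic site, stood at 11.16, 11.22 and 11.22 in shARID1B+4OHT cells, 11.56, 11.48 and 11.52 in vector+4OHT cells, and 11.14, 10.96 and 11.10 in vector-4OHT cells. The 3 groups did not overlap. PSMB3 rose in senescence by 0.45 (SE 0.057, limma adjusted p = 1.0e-04), the largest rise of the 45 genes there, and fell upon knockdown by 0.32 (SE 0.057, limma adjusted p = 0.0037). PSMB1, PSMB2 and PSMB4, which complete the beta ring, were not called in either comparison.

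Of the non-ATPase subunits of the 19S cap, 6 of 9 rose in senescence (PSMD2, PSMD3, PSMD4, PSMD8, PSMD12 and PSMD14), with log2 changes from 0.13 to 0.41. PSMD2, a scaffold of the cap's base, stood at 10.82, 10.85 and 10.85 in shARID1B+4OHT cells, 11.07, 11.06 and 11.13 in vector+4OHT cells, and 10.69, 10.67 and 10.67 in vector-4OHT cells. The 3 groups did not overlap and each was narrow. PSMD2 rose in senescence by 0.41 (SE 0.045, limma adjusted p = 3.9e-05), the smallest adjusted p of the 45 genes there, and fell upon knockdown by 0.25 (SE 0.045, limma adjusted p = 0.0043).

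PSMD3, a lid subunit, stood at 11.07, 11.09 and 11.08 in shARID1B+4OHT cells, 11.32, 11.22 and 11.28 in vector+4OHT cells, and 11.11, 11.04 and 11.09 in vector-4OHT cells. The vector+4OHT arrays were above all others and the other groups overlapped. It rose in senescence by 0.19 (SE 0.048, limma adjusted p = 0.0097) and fell upon knockdown by 0.19 (SE 0.048, limma adjusted p = 0.023). The fall was not called without vector+4OHT replicate 1 or 3 or any 1 of the shARID1B+4OHT arrays, with adjusted p up to 0.075, nor with each array's median subtracted (limma adjusted p = 0.069). PSMD8, also of the lid, stood at 12.07, 12.09 and 12.07 in shARID1B+4OHT cells, 12.24, 12.14 and 12.15 in vector+4OHT cells, and 11.94, 11.88 and 11.90 in vector-4OHT cells. It rose in senescence by 0.27 (SE 0.048, limma adjusted p = 0.0012), without overlap between any groups. PSMD14, the deubiquitinase of the lid, rose in senescence by 0.29 (SE 0.063, limma adjusted p = 0.0046), PSMD12 by 0.17 (SE 0.056, limma adjusted p = 0.042) and PSMD4, a ubiquitin receptor, by 0.13 (SE 0.045, limma adjusted p = 0.049). PSMD12 and PSMD4 were close to the threshold. The methods' t-test with Benjamini-Hochberg adjustment did not call PSMD12 or PSMD14. The calls of PSMD4, PSMD12 and PSMD14 were not followed gene by gene when single arrays were left out. PSMD1, PSMD6 and PSMD11 were not called in either comparison.

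Of the 5 cap ATPases measured, which unfold the substrate, only PSMC4 was called by limma in senescence and none upon knockdown, where 2 had an unadjusted p below 0.05 (PSMC2 and PSMC6). PSMC4 stood at 11.96, 11.91 and 11.92 in shARID1B+4OHT cells, 11.98, 12.09 and 11.95 in vector+4OHT cells, and 11.64, 11.81 and 11.55 in vector-4OHT cells, a rise in senescence of 0.34 (SE 0.070, limma adjusted p = 0.0028) that the methods' t-test with Benjamini-Hochberg adjustment did not call (adjusted p = 0.075). The 4OHT groups overlapped and both were above the vector-4OHT arrays. PSMC2 stood at 11.55, 11.45 and 11.40 in shARID1B+4OHT cells, 11.56, 11.67 and 11.54 in vector+4OHT cells, and 11.61, 11.65 and 11.58 in vector-4OHT cells, with changes of -0.02 in senescence and -0.13 upon knockdown that did not pass the test. PSMC6 stood at 10.08, 10.18 and 10.05 in shARID1B+4OHT cells, 9.84, 9.85 and 10.00 in vector+4OHT cells, and 9.98, 9.81 and 9.86 in vector-4OHT cells. Its knockdown change of 0.21 did not pass the test (limma adjusted p = 0.061), and its second, dimmer probe set gave -0.16, the opposite sign. PSMC1 and PSMC3 were not called.

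None of the 7 assembly chaperones was called in senescence or upon knockdown, where their log2 changes ran from -0.08 to 0.14 and from -0.0055 to 0.10. At an unadjusted limma p below 0.05, 2 were higher in senescence (PSMD9 and PSMG3) and 0 were called upon knockdown. PSMG3, a dedicated chaperone of the alpha ring, stood at 9.86, 9.98 and 9.90 in shARID1B+4OHT cells, 9.84, 9.94 and 9.80 in vector+4OHT cells, and 9.70, 9.68 and 9.79 in vector-4OHT cells. PSMD9, a chaperone of the ATPase ring, stood at 9.03, 9.17 and 9.14 in shARID1B+4OHT cells, 9.03, 8.92 and 9.08 in vector+4OHT cells, and 8.92, 8.89 and 8.79 in vector-4OHT cells. Both were higher in vector+4OHT than in vector-4OHT cells on every array, by 0.14 each, which did not pass the test (limma adjusted p = 0.096 and 0.11). PSMG2 stood at 11.51, 11.52 and 11.49 in shARID1B+4OHT cells, 11.49, 11.35 and 11.43 in vector+4OHT cells, and 11.54, 11.49 and 11.46 in vector-4OHT cells, and its groups overlapped in both comparisons. PSMD5, PSMD10, PSMG1 and PSMG4 were not called, and PSMG4 lay near the median of all values on every array.

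**Figure D5:**
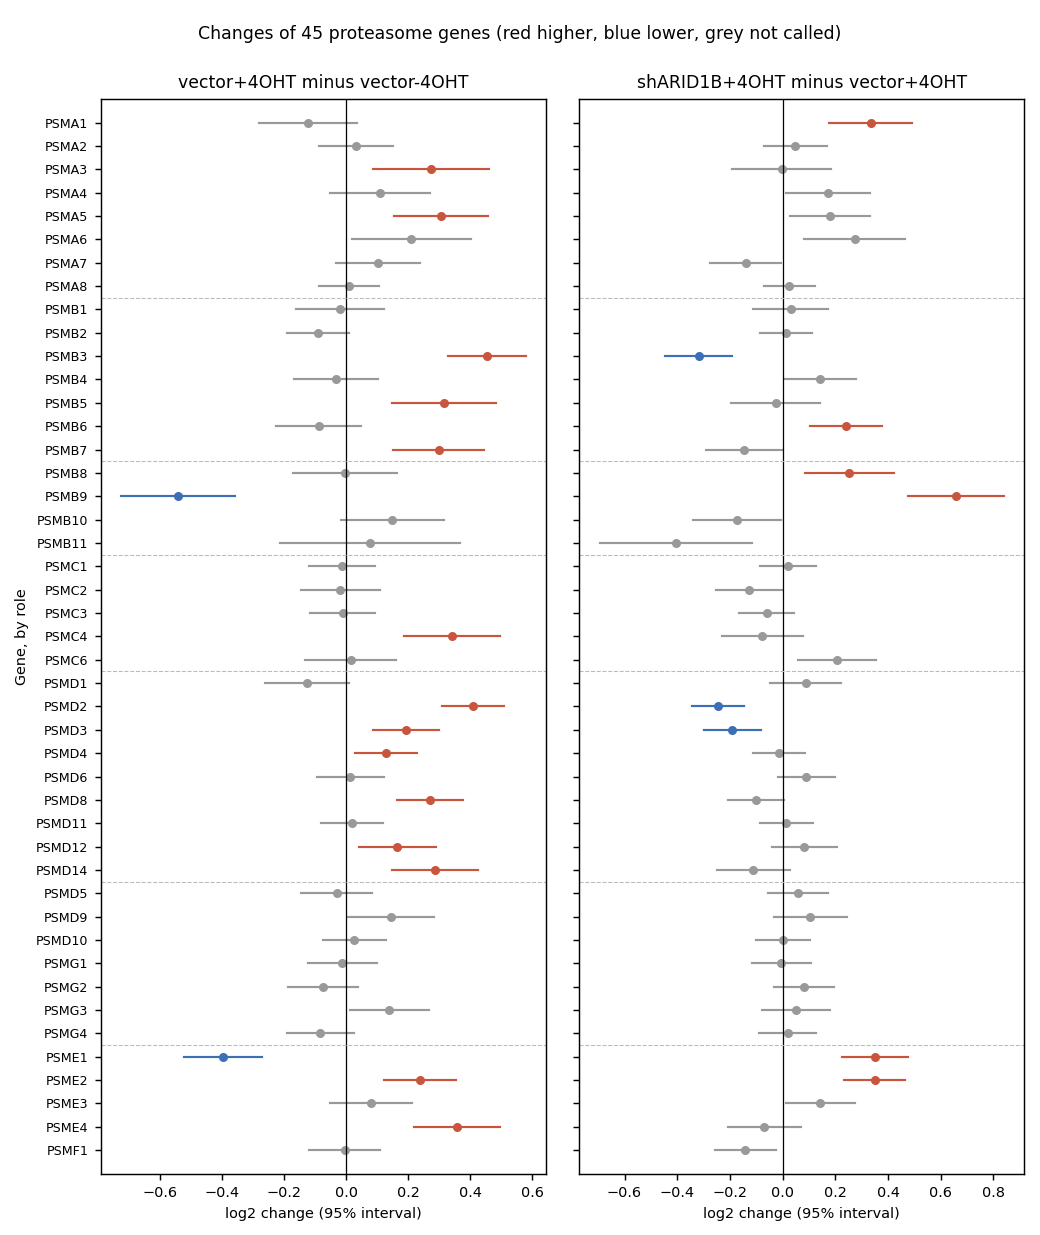
Log2 change of each of the 45 proteasome genes with its 95% interval from limma, in senescence (left) and upon ARID1B knockdown (right), grouped by role and coloured red where called higher, blue where called lower and grey where not called. PSMB9 (-0.54 and 0.66) and PSME1 (-0.40 and 0.35) have opposite signs in the 2 panels, as do PSMB3 (0.45 and -0.32) and PSMD2 (0.41 and -0.25).

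The last comparison set the knockdown cells with RAS switched on against non-senescent cells. In shARID1B+4OHT against vector-4OHT cells 17 proteasome genes rose (37.8%, against 15.6% of all genes tested) and none fell by limma (against 15.9% of all genes); the call in either direction was made for 31.5% of all genes. Among genes that passed the filter on dim probe sets, 42.9% of the proteasome genes rose, against 24.0% of all that passed. There 2.38% of the proteasome genes fell, against 22.5%. At an unadjusted p below 0.05 limma had 3 of the 45 lower (PSMB11, PSMC2 and PSMF1) and the methods' t-test 4, of which 1 was left after Benjamini-Hochberg adjustment. The median log2 change was 0.11 over the 45 genes and -0.03 over all genes, and 34 of the 45 changes were above 0. With each array's median subtracted, 22 of the 45 genes rose and none fell, while over all genes the split was 3452 higher and 2087 lower, against 2867 higher and 2933 lower without it. The count of 17 was 10 without replicate 2 of either group or shARID1B+4OHT replicate 3, and 11 without vector-4OHT replicate 3.

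Of the alpha subunits, 5 of 8 were higher in this comparison. PSMA5 rose by 0.48 (SE 0.068, limma adjusted p = 2.5e-04) and PSMA6 by 0.48 (SE 0.087, limma adjusted p = 0.0013), each 1.40-fold, and PSMA1, PSMA3 and PSMA4 by 0.21 to 0.28. Also higher were PSMB5 and PSMB8, PSMC4 and PSMC6, PSMD2, PSMD8 and PSMD12, the chaperones PSMD9 and PSMG3, and the activators PSME2, PSME3 and PSME4, with log2 changes from 0.16 to 0.59. By the methods' t-test with Benjamini-Hochberg adjustment 11 of the 45 were higher (24.4%, against 12.1% of all genes), and PSMA3, PSMB5, PSMB8, PSMC4, PSMC6, PSME3 and PSMG3 were not called (adjusted p = 0.060 to 0.16). Of the 17 limma calls 9 were kept under that test, so the genes just named are not all that lost their call. They were drawn from the genes with values on every array, which left out PSMA4 and PSMD12. The call for PSMC6 was lost when its 2 probe sets were averaged (limma adjusted p = 0.21). On single arrays, the median of the 45 genes over their vector-4OHT mean was 0.10 to 0.12 for shARID1B+4OHT, 0.036 to 0.078 for vector+4OHT and -0.025 to 0.048 for vector-4OHT arrays.

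The genes that work with the proteasome under other names were counted in the same fit. Of all genes tested, 14.9% rose and 17.6% fell in senescence, and 9.63% rose and 6.09% fell upon knockdown. The lists below are short and were not tested as sets. Of 12 partner proteins, all measured, 4 rose and 3 fell in senescence. ZFAND5, which activates the proteasome, rose by 0.47 (SE 0.051, limma adjusted p = 3.6e-05), the ubiquitin receptor ADRM1 by 0.31 (SE 0.049, limma adjusted p = 5.4e-04), and UCHL5 and UBE3C, a deubiquitinase and a ubiquitin ligase of the cap, by 0.25 each. PAAF1, which binds the cap ATPases, fell by 0.43 (SE 0.084, limma adjusted p = 0.0021), AKIRIN2, which carries proteasomes into the nucleus, by 0.24 and the deubiquitinase USP14 by 0.18. Upon knockdown 3 rose (PAAF1 by 0.47, ZFAND2A by 0.28 and USP14 by 0.21) and 2 fell (ZFAND5 by 0.20 and ADRM1 by 0.17). POMP, the core's maturation factor, was not called in any comparison.

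Of 22 genes of proteasome transcription and ubiquitin supply, 16 were measured. Their counts stand beside 14.9% higher and 17.6% lower over all genes in senescence, and 9.63% and 6.09% upon knockdown. In senescence 5 rose, the small MAF proteins MAFF (0.60, SE 0.080) and MAFG (0.31), the NF-Y subunit NFYA (0.27), the shuttle protein UBQLN4 (0.24) and the intramembrane protease HM13 (0.20), and 3 fell, the shuttle protein RAD23B by 0.43, NFYB by 0.39 and NFE2L2 (NRF2) by 0.15. NFE2L1, which induces proteasome genes when the proteasome is impaired, stood at 11.13, 11.11 and 11.16 in shARID1B+4OHT cells, 10.90, 11.03 and 11.01 in vector+4OHT cells, and 11.05, 11.07 and 11.07 in vector-4OHT cells. Its senescence change of -0.08 and knockdown change of 0.15 did not pass the test (limma adjusted p = 0.28 and 0.069), and NFE2L2, which rose by 0.25 (limma adjusted p = 0.0066), was the only one of the 16 called upon knockdown.

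Of 16 interferon and antigen-processing partners of the immunoproteasome, 10 were measured. Over all genes, 14.9% were higher and 17.6% lower in senescence, and 9.63% and 6.09% upon knockdown. In senescence 3 rose (TAP1, its partner TAP2 by 0.41 and the transcription factor IRF1 by 0.33) and 1 fell (the peptide-trimming enzyme ERAP1, by 0.61). Upon knockdown 3 rose and none fell by limma (0 lower also at an unadjusted p below 0.05), the interferon-signalling factor IRF9 by 0.39 (SE 0.074, limma adjusted p = 0.0053), TAPBP, which loads peptide on class I molecules, by 0.26 and IRF1 by 0.22. B2M and NLRC5, the light chain and the transactivator of class I genes, were not called in any comparison.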

How the data were processed

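RNA of 9 samples was measured on Affymetrix whole-transcript arrays. The labels' extraction text instead names an Illumina kit for stranded mRNA. The deposited log2 values, 1 per probe set and array, were used as the authors made them. RMA, which corrects background, normalises by quantiles and summarises probes, is named with oligo and limma in the submitters' processing notes, and neither versions nor a build are given in the sources used here.

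Of 33297 probe sets, 19460 carried exactly 1 symbol, and for each of the resulting 18417 genes the probe set with the highest mean over 9 arrays was kept. The 45 genes studied had 51 such probe sets. Groups were taken from the labels. limma 3.58.1 (R 4.3.3) was fitted to all 9 arrays with group as the only term (6 residual df), and p-values were adjusted by Benjamini-Hochberg over 18417 genes within each comparison. The fit was tested on simulated data. With 3 arrays a group the precision is limited, and the comparisons share arrays.

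The genes with values on every array were PSMB5 to PSMB10, PSME1 to PSME4, PSMF1 and, in each other role, the 2 with the smallest p in senescence and the 2 with the smallest p upon knockdown. Members, lists and tests were chosen with earlier results of these data known. Alternatives were a replicate block, other arrays, probe sets, filters, scaling and spread models, the methods' 2-tailed t-test, and leaving out each array.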

Additional observations from a re-analysis of the deposited data

How the results depend on the processing

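The counts, the medians and the changes of the genes with values on every array were recomputed under alternative settings. These were 19 with the second PSMC6 probe set, which applied to that gene alone and was chosen after seeing the data. The medians were not recomputed for the t-test or the intensity trend. Of the genes with values on every array, PSMB3, PSMB9, PSMD2, PSMD3, PSMD8, PSME1, PSME2 and PSME4 kept their senescence call in every setting, PSMB3, PSMD2, PSME1 and PSME2 their knockdown call, and PSMA5, PSMA6, PSMD9, PSME2 and PSME4 their call in shARID1B+4OHT against vector-4OHT cells. The cause of the changes below was not tested.

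In senescence, the count of higher genes was 14, 7 by the methods' t-test with Benjamini-Hochberg and 11 to 15 leaving out 1 array, and the count of lower genes was 4 over all probe sets (PSMB9 counted 3 times) and 2 leaving out any array. The median was 0.056 with dim genes left out, 0.075 with probe sets of a gene averaged, 0.067 with array medians subtracted, and 0.024 to 0.065 leaving out 1 array. Upon knockdown, the higher count was 10 over all probe sets, with PSMB8 and PSMB9 counted 3 times each and no further gene called. It was 11 by the unadjusted t-test, 2 after Benjamini-Hochberg and 4 to 7 leaving out 1 array. The lower count was 5 with an intensity trend, 6 by the unadjusted t-test and 2 to 3 leaving out 1 array. The median was 0.047 with array medians subtracted and 0.013 to 0.026 leaving out 1 array. In shARID1B+4OHT against vector-4OHT cells, the higher count was 11 by the methods' t-test with Benjamini-Hochberg and 10 to 18 leaving out 1 array. The lower count was 2 in the fit of 6 arrays and with an intensity trend, 1 with dim genes left out, 4 by the unadjusted t-test, 1 after Benjamini-Hochberg and 0 to 2 leaving out 1 array. The median was 0.126 with dim genes left out, 0.175 with array medians subtracted and 0.099 to 0.134 leaving out 1 array.

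Changes near 0 that were not called turned sign. With array medians subtracted, PSMB8, PSMF1 and PSMC2 changed by 0.031, 0.031 and 0.017 in senescence, PSMA3 by 0.022 upon knockdown, and PSMB10 and PSME1 by 0.035 and 0.014 in shARID1B+4OHT against vector-4OHT cells. Leaving out 1 array gave -0.083 to 0.038 for PSMB8, -0.037 to 0.027 for PSMF1, -0.059 to 0.0080 for PSMC2 and -0.037 to 0.065 for PSMC6 in senescence, -0.077 to 0.0037 for PSMB5 and -0.051 to 0.047 for PSMA3 upon knockdown, and -0.091 to 0.038 for PSMB10, -0.019 to 0.020 for PSMD3 and -0.011 to 0.031 for PSMG2 against vector-4OHT cells. The second PSMC6 probe set gave -0.16 upon knockdown and -0.028 against vector-4OHT cells, where the first had been called.

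Against vector-4OHT cells, calls were also lost for PSMA1 (limma adjusted p up to 0.137) without any 1 of the 6 arrays compared, for PSMB8 (0.098) without vector-4OHT replicate 2 or any shARID1B+4OHT array, for PSMD8 (0.066) without the same arrays, for PSMA3 (0.122) without replicate 2 or 3 of either group, for PSMC6 (0.107) without vector-4OHT replicate 2 or 3 or shARID1B+4OHT replicate 1 or 2, for PSMG3 (0.113) without vector-4OHT replicate 1 or 2 or shARID1B+4OHT replicate 2 or 3, for PSMD2 (0.061) without shARID1B+4OHT replicate 2 or 3, for PSMB5 (0.060) without vector-4OHT replicate 2 or shARID1B+4OHT replicate 3, and for PSMC4 (0.055) and PSME3 (0.052) without vector-4OHT replicate 3.

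Same-numbered arrays deviated from their group means with correlations of -0.26 to 0.32. Arrays with different numbers were not compared in this way, so whether same-numbered arrays share a batch was not tested. With the replicate block, 12 genes rose and 2 fell in senescence, 6 rose and 3 fell upon knockdown, and 16 rose and none fell against vector-4OHT cells, where PSMA1 lost its call (limma adjusted p = 0.053). Over all genes the t-test called 5998, 4342 and 6691 genes unadjusted and 3737, 1446 and 4465 after Benjamini-Hochberg, against 5996, 2895 and 5800 by limma.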
